A study of Mus musculus with 12 samples.

Results

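The CISH and SOCS family comprises 8 genes, Cish and Socs1 to Socs7, and its members were taken as the rows of the count table that carry these symbols. All 8 were found among the 14323 gene symbols counted. Their RNA was followed in naïve CD8+ T cells (sorted as TCRβ+CD8+CD62L+CD44-) from the spleens of 3 adult wild type mice, kept for 6 h at 100000 cells per well. The wells were coated with 2.5 µg/ml of isotype control or of agonistic anti-LAIR-1 antibody, with or without 2.5 µg/ml anti-CD3, which gave 4 groups of 3 libraries, each library being 1 mouse in 1 condition. Cells without anti-CD3 are called unstimulated here. The labels of their libraries name an isotype in the place of anti-CD3, whose amount is not given in the sources used here. LAIR-1 is an inhibitory receptor for collagen, and the question was how its ligation changes the response of T cells to CD3. All groups came from the same 3 animals, and antibody on plastic stood in for collagen and for antigen.

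CIS (the protein of Cish) and the SOCS proteins are brakes on cytokine signalling. Cytokine receptors activate JAK kinases, which activate STAT transcription factors, and STATs in turn switch on Cish and several Socs genes, which closes a feedback loop. Each protein binds phosphorylated targets through an SH2 domain and carries a SOCS box, with which it recruits elongin B, elongin C and cullin 5 to mark its targets for degradation. In T cells, Cish is a classical target of STAT5 downstream of IL-2, and CIS has also been described to limit signalling of the T cell receptor itself.

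Libraries held 1781218 to 3589194 counts without and 3478294 to 7725545 with anti-CD3. At these totals 3 counts, taken as the limit of detection, were 0.407 to 1.58 CPM (counts scaled to library size by TMM), which covers counting error only. The 5 CD8 T cell markers were above this limit in every library. Their sum was 2435 to 2847 CPM in unstimulated libraries, 1364 to 1436 with anti-CD3 under isotype and 1706 to 1896 under anti-LAIR-1. CD4 T cell markers summed to at most 4.73 CPM, B cell markers to 17.9 and myeloid markers to 3.00. Of the NK cell list, Eomes, which CD8 T cells also express, was at 23.2 to 49.2 CPM. All 5 naïve T cell markers were above the limit throughout, and their sum was 3499 to 3915 CPM in unstimulated libraries, and in stimulated libraries 407 to 491 under isotype and 571 to 707 under anti-LAIR-1. Mitochondrial genes took 17.6 to 20.9% of counts without and 11.5 to 13.2% with anti-CD3. Both marker sums and this share move with anti-CD3, and in stimulated cells both sums are also apart between isotype and anti-LAIR-1, as Cish is. Their part in the results was not tested. Lair1 itself, whose protein the antibody engages, had 0 to 7 counts per library and was too low to test.

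In each comparison 7 of the 8 genes passed the filter on low counts and were tested. Socs2, an inhibitor best known for restraining growth hormone signalling, had 0 reads in 8 of the 12 libraries and 1 to 4 in the other 4. It was left out by the filter. Since reads come from the 3′ end and genes differ in how well this end is captured, levels are compared within a gene. Where members are set side by side, it is by their numbers of reads, which do not rank them by abundance of RNA.

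**Figure D1:**
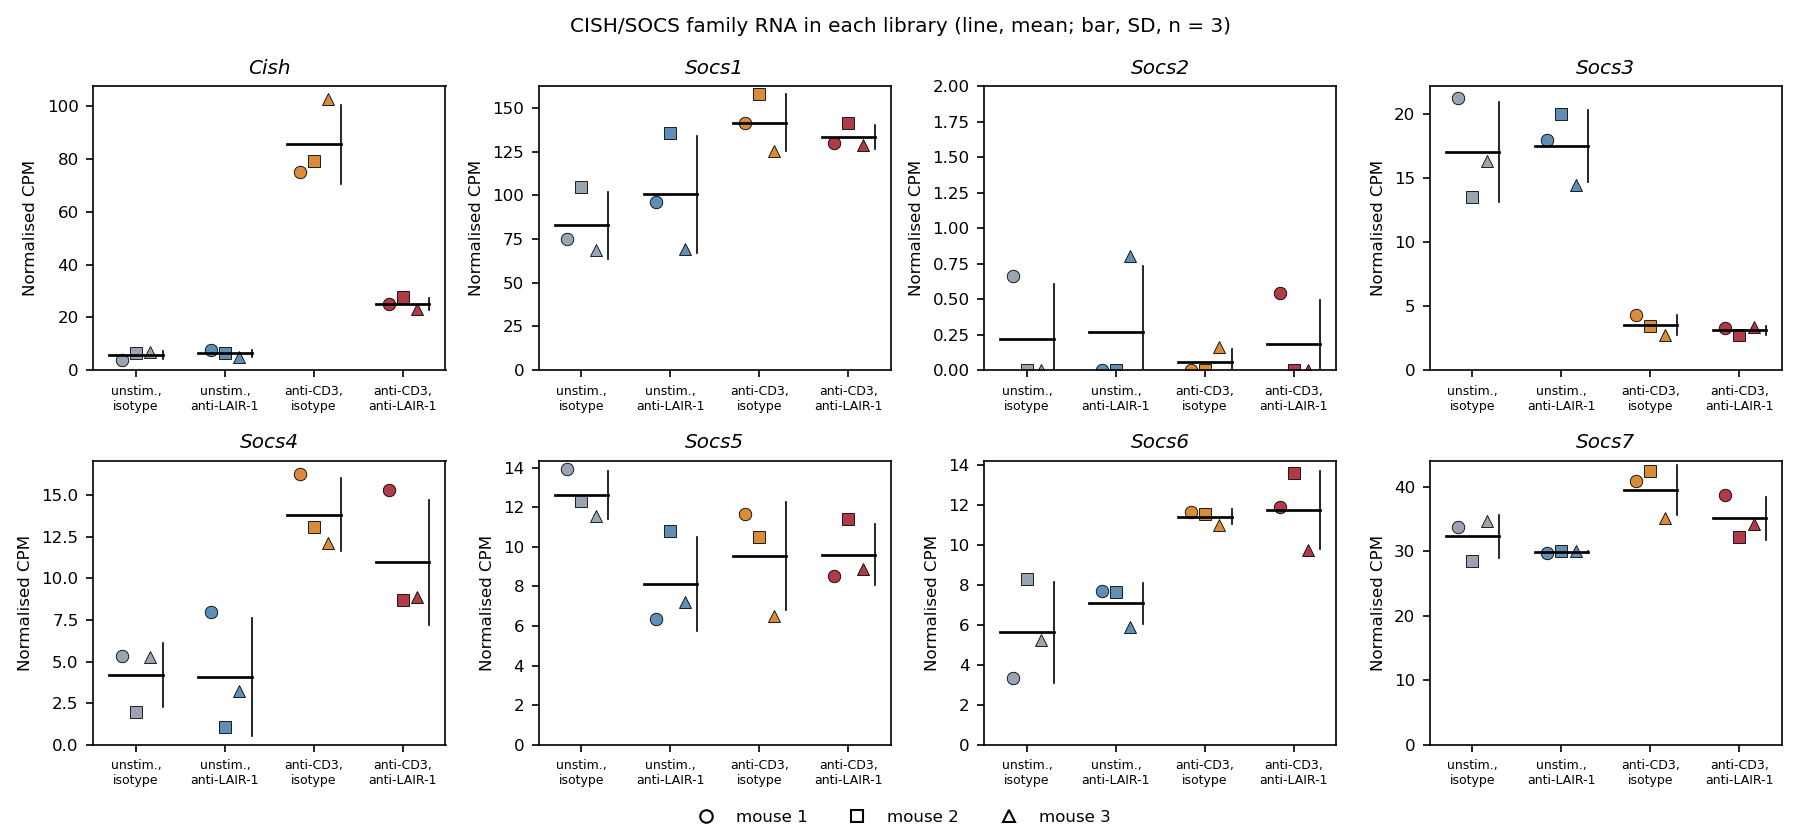
Normalised CPM of each member (vertical axis, linear, from 0) in the 12 libraries, by group (horizontal axis, unstim. for unstimulated), with a symbol for each mouse, a line for the mean and a bar for the SD (n = 3). Cish was highest with anti-CD3 and isotype, at 75.0 to 103 CPM, against 23.1 to 27.5 with anti-CD3 and anti-LAIR-1, while Socs3 was at 13.5 to 21.2 CPM in unstimulated and 2.72 to 4.30 in stimulated libraries.

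Stimulation through CD3 moved most of the family. With isotype, 5 of the 7 tested members passed an adjusted p-value of 0.05 (edgeR's quasi-likelihood test, adjusted by Benjamini-Hochberg over all genes that were tested), against 71.3% of all 8690 genes tested, so that the share of members called was near the background. Cish, Socs1, Socs4 and Socs6 rose, as did 35.3% of all genes, Socs3 fell, as did 36.1%, and Socs5 and Socs7 did not pass. The 3 isotype libraries did not overlap between conditions for 6 members, where 73.4% of all genes had groups apart. With anti-LAIR-1 present in both conditions, 5 of 7 members also passed, against 72.7% of 9000 genes. The same 4 members rose and Socs3 fell, against 36.4% and 36.3% of all genes, with groups apart for 5 members and 74.7% of all genes.

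Cish, the founding member, was low in unstimulated cells. The unstimulated isotype libraries of mice 1, 2 and 3 held 12, 16 and 13 Cish reads, or 3.98, 6.34 and 6.83 CPM. With anti-CD3 and isotype the same mice gave 244, 369 and 635 reads, or 75.0, 79.1 and 103 CPM. Every stimulated library was thus far above every unstimulated one. The mean rose from 5.72 ± 1.52 to 85.6 ± 15.0 CPM (SD, n = 3), which was 3.88 on the log2 scale (standard error 0.22, adjusted p = 1.44e-13 in edgeR) or 14.7-fold, and the 94th highest of the 8690 genes. With anti-LAIR-1 in both conditions Cish still rose, from 6.28 ± 1.34 to 25.2 ± 2.26 CPM, but by 1.99 on the log2 scale (standard error 0.20, adjusted p = 4.8e-08 in edgeR), or 3.96-fold. This was the 491st highest of 9000 genes. Both rises passed in all 15 other settings tried for each.

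Cish lies on chromosome 9 from 107296026 to 107302784 (+ strand, GRCm38, the assembly also called mm10). Because STAT5 binds the letters TTCNNNGAA (N, any base), this motif was searched in RefSeq windows from 250 bases before to 50 bases after each transcript start (GRCm38.p6). Its letters pair with themselves on the opposite strand, so 1 search covers both strands. Windows were at hand for 4 members, Cish, Socs1, Socs3 and Socs4. The window of Cish held the motif 2 times and that of Socs3 1 time, and those of Socs1 and Socs4 held none. Of all 32851 windows, 8.3% held it at least once and 0.457% at least 2 times. The same letters with 4 bases in place of 3 between the outer triplets were in none of the 4 windows and in 6.95% of all windows. The stretches around the 3 matches are shown because Cish and Socs3 are the members with the largest changes, in opposite directions. Capitals mark the motif, and each is read 5′ to 3′ on the strand of its gene, at chr9:107296649-107296677 (+), chr9:107296660-107296688 (+) and chr11:117969502-117969530 (-).
Cish, motif at the RefSeq start: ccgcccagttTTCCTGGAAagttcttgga
Cish, motif 11 bases after the start: tcctggaaagTTCTTGGAAatctgtcaaa
Socs3, motif 154 bases before the start: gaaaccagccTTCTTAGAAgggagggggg
The Cish matches do not overlap each other, although the stretches printed around them share bases, and both lie within an exon and 5′ UTR of a longer GENCODE transcript. A match is a description of letters, and binding was not measured. GENCODE M21 also places a transcribed processed pseudogene, Gm17040, and an antisense gene, Gm17041, over exons of Cish on the opposite strand. Neither had a row in the count table, and whether the counting used strand is not given in the sources used here.

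Socs1, whose protein blocks JAK kinases directly and restrains interferon-γ and common γ-chain cytokine signalling, was already expressed in unstimulated cells. Its unstimulated isotype libraries were at 75.0, 105 and 68.9 CPM in mice 1 to 3, and those with anti-CD3 and isotype at 142, 158 and 125 CPM. All 3 stimulated libraries lay above all 3 unstimulated ones, and the rise was 0.69 on the log2 scale (standard error 0.14, adjusted p = 0.000106 in edgeR), or 1.61-fold. With anti-LAIR-1, unstimulated libraries ranged from 69.3 to 136 CPM and stimulated ones from 129 to 141, so that the groups overlapped through the unstimulated library of mouse 2. That rise was 0.39 (standard error 0.15, adjusted p = 0.0292 in edgeR). It lost its call in DESeq2 (adjusted p = 0.19), with all libraries thinned to the smallest total (adjusted p = 0.334 in edgeR), without the unstimulated anti-LAIR-1 library of mouse 1 (adjusted p = 0.0872 in edgeR) or of mouse 3 (log2 0.18, adjusted p = 0.199 in edgeR), and without the stimulated anti-LAIR-1 library of mouse 2 (adjusted p = 0.0828 in edgeR). Without the unstimulated anti-LAIR-1 library of mouse 2 it was 0.67. Socs1 is on chromosome 16 from 10782240 to 10785536 (- strand).

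Socs3, which blocks signalling of the gp130 family of receptors such as that of IL-6, was the only member that fell with anti-CD3 in the main edgeR analysis. Its unstimulated isotype libraries were at 21.2, 13.5 and 16.3 CPM in mice 1 to 3, from 64, 34 and 31 reads. With anti-CD3 they were at 4.30, 3.43 and 2.75 CPM, from 14, 16 and 17 reads. No library of either group came near the other group, although the stimulated libraries were deeper. With isotype the log2 fold change was -2.40 with a standard error of 0.30 (adjusted p = 1.81e-07 in edgeR), or 5.29-fold lower. With anti-LAIR-1 the means were 17.5 ± 2.80 and 3.12 ± 0.351 CPM (SD, n = 3), which gave -2.50 (standard error 0.25, adjusted p = 2.99e-08 in edgeR). Socs3 passed in all 15 other settings of both comparisons, and lies on chromosome 11 from 117966079 to 117970047 (- strand).

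Socs4 and Socs6 had few reads and rose with anti-CD3. Socs4, described as a regulator of the EGF receptor, had 5 to 16 reads in unstimulated isotype libraries and 53 to 75 with anti-CD3. Its mean went from 4.18 ± 1.91 to 13.8 ± 2.17 CPM (SD, n = 3), by 1.63 on the log2 scale (standard error 0.33, adjusted p = 0.00011 in edgeR). With anti-LAIR-1 the Socs4 libraries were at 7.99, 1.05 and 3.21 CPM unstimulated and at 15.3, 8.67 and 8.88 CPM with anti-CD3. Mouse 1 was the highest of each of these groups, and the groups did not overlap. This rise was 1.44 (standard error 0.41, adjusted p = 0.00387 in edgeR), while DESeq2 gave an adjusted p of 0.0865. Without the unstimulated library of mouse 1 it was 2.37, and it passed in edgeR without any 1 library, at 0.98 to 2.37. In both comparisons the unstimulated library of mouse 2, at 5 and 4 reads, was under the filter's limit. Socs4 thus passed the filter through the stimulated libraries, where it is high, and the counts of members that rose include it. With at least 10 counts required in every library Socs4 was not tested.

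Socs6, described as a partner of receptor tyrosine kinases and of the T cell kinase Lck, was at 3.32, 8.32 and 5.26 CPM in the unstimulated isotype libraries and at 11.7, 11.6 and 11.0 CPM with anti-CD3. Mouse 1 had the lowest unstimulated value, and the stimulated libraries were closely alike. Socs6 rose by 0.96 with a standard error of 0.32 (adjusted p = 0.0104 in edgeR). This call was lost without the unstimulated isotype library of mouse 1 (log2 0.62, adjusted p = 0.102 in edgeR), with thinned libraries (log2 0.44, adjusted p = 0.303 in edgeR) and in DESeq2 with a block for the mouse (adjusted p = 0.0673). With anti-LAIR-1 the means of Socs6 were 7.08 ± 1.03 and 11.8 ± 1.94 CPM, a rise of 0.72 (standard error 0.24, adjusted p = 0.0105 in edgeR), which was lost with thinned libraries (adjusted p = 0.123 in edgeR) and in DESeq2 with the block (adjusted p = 0.0758). Socs4 lies on chromosome 14 from 47276931 to 47296102 (+ strand) and Socs6 on chromosome 18 from 88665224 to 88927481 (- strand).

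Socs5 and Socs7 did not pass with anti-CD3 in either setting. Socs5, linked to restraint of IL-4 receptor signalling, was at 12.6 ± 1.22 CPM in unstimulated and 9.55 ± 2.73 in stimulated isotype libraries (SD, n = 3). Its log2 fold change was -0.52 with a 95% interval of -1.09 to 0.04 (adjusted p = 0.0892 in edgeR). With libraries thinned to the smallest total it passed, at -0.78 (adjusted p = 0.0292 in edgeR). In the anti-LAIR-1 libraries the value was 0.22 (adjusted p = 0.448 in edgeR). Socs7, an adaptor implicated in insulin signalling, was at 32.4 ± 3.34 and 39.5 ± 3.85 CPM with isotype, a log2 fold change of 0.21 with an interval of -0.11 to 0.53 (adjusted p = 0.236 in edgeR). For Socs7 with anti-LAIR-1 it was 0.22 (adjusted p = 0.149 in edgeR), and its groups were apart in both settings. Socs5 is on chromosome 17 from 87107679 to 87137839 and Socs7 on chromosome 11 from 97362551 to 97398542, both on the + strand.

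**Figure D2:**
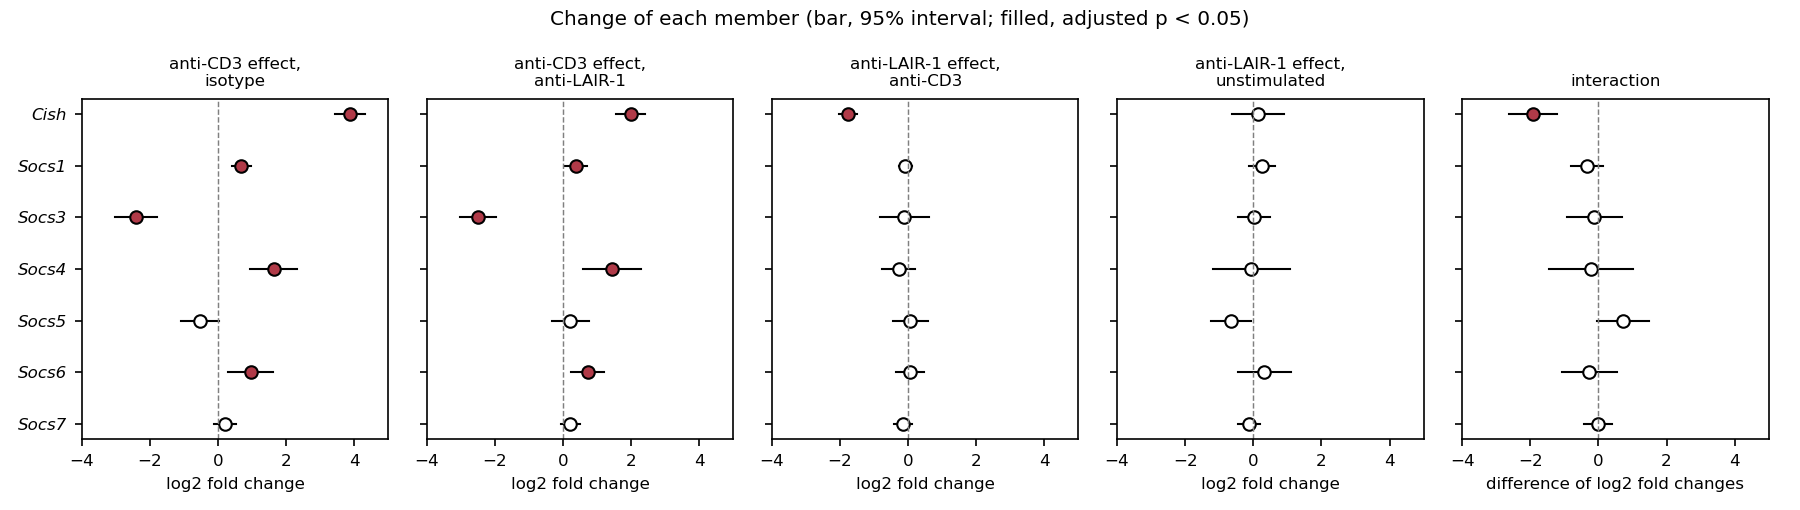
Log2 fold change of the 7 tested members (horizontal axis) in each comparison, with 95% intervals as bars and filled points for an adjusted p-value under 0.05 in edgeR. Cish was the only filled point with anti-LAIR-1 in stimulated cells (-1.77) and for the interaction (-1.92), and no member was filled with anti-LAIR-1 in unstimulated cells.

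Ligation of LAIR-1 in stimulated cells changed 1 member, Cish, out of 7 tested, where 5.76% of 8800 genes passed in either direction and 1.86% were lower. Its stimulated libraries with anti-LAIR-1 held 184, 162 and 109 reads in mice 1 to 3, at 24.9, 27.5 and 23.1 CPM, against 75.0, 79.1 and 103 CPM with isotype. The lowest isotype library was well above the highest anti-LAIR-1 library. Cish fell by 1.77 on the log2 scale with a standard error of 0.13 (adjusted p = 9.47e-07 in edgeR), or 3.41-fold lower, and was 6th lowest of the 8800 genes. The difference in log2 CPM was -1.57, -1.51 and -2.13 in mice 1, 2 and 3. Cish with anti-LAIR-1 and anti-CD3 remained above every unstimulated library, of which the highest was at 7.44 CPM.

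None of the other members passed, and their intervals bound the size of a change that could have been missed. For Socs1 the log2 fold change was -0.08 (95% interval -0.27 to 0.11, adjusted p = 0.715 in edgeR), with stimulated libraries at 142, 158 and 125 CPM under isotype and 130, 141 and 129 with anti-LAIR-1. These 2 groups of Socs1 overlapped, and in mouse 3 anti-LAIR-1 was the higher. Socs7 was at -0.15 (-0.42 to 0.11, adjusted p = 0.575 in edgeR) and Socs6 at 0.06 (-0.35 to 0.47, adjusted p = 0.916 in edgeR). Intervals were wider for the genes with fewer reads, with Socs4 at -0.28 (-0.77 to 0.21), Socs5 at 0.05 (-0.46 to 0.57) and Socs3 at -0.12 (-0.84 to 0.60). A 2-fold difference, 1 on the log2 scale, lay outside each of these 6 intervals. Groups were apart for 1 member, Cish, where 24.4% of all genes had groups apart.

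In unstimulated cells no member passed with anti-LAIR-1, and neither did any other of the 8770 genes (0%) in edgeR, where 384 had an unadjusted p-value under 0.05, or in DESeq2. Cish libraries were at 3.98, 6.34 and 6.83 CPM under isotype and at 7.44, 6.58 and 4.82 with anti-LAIR-1. The ranges of the groups overlapped, with mouse 1 higher and mouse 3 lower under anti-LAIR-1, and the log2 fold change was 0.15 with a wide interval of -0.62 to 0.91 (adjusted p = 0.997 in edgeR). Socs5 was the 1 member with groups apart, as were 9.86% of all genes, at 13.9, 12.3 and 11.6 CPM under isotype and 6.34, 10.8 and 7.23 with anti-LAIR-1. It was lower in all 3 mice, at a log2 fold change of -0.66 (95% interval -1.24 to -0.07, unadjusted p = 0.0297 and adjusted p = 0.997 in edgeR). Socs1 was at 0.26 (-0.12 to 0.64), Socs3 at 0.01 (-0.46 to 0.48) and Socs4 at -0.05 (-1.18 to 1.07).

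The interaction asks whether CD3 stimulation changed the effect of anti-LAIR-1, which equals asking whether anti-LAIR-1 changed the effect of CD3 stimulation. Of the 7 members, Cish alone passed, where 2.07% of 9223 genes did and 0.249% did in its direction. The difference of log2 fold changes was -1.92 (standard error 0.34, 95% interval -2.62 to -1.23, adjusted p = 0.00173 in edgeR), a 3.79-fold lower response, and it was the 40th lowest of the genes tested. In single mice it was -2.40, -1.56 and -1.67. For the other 6 the adjusted p in edgeR was 0.461 to 0.983, with the lowest for Socs5 at 0.72 (-0.05 to 1.48) and Socs1 at -0.33 (-0.81 to 0.15).

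Within a gene, the order of the groups was therefore not the same for each member. Cish was ordered anti-CD3 with isotype, anti-CD3 with anti-LAIR-1, and then both unstimulated groups, which overlapped. Socs1, Socs4, Socs6 and Socs7 had their higher means in both stimulated groups, which overlapped each other, but the unstimulated anti-LAIR-1 group of Socs1 and the unstimulated isotype group of Socs7 overlapped a stimulated group as well. For Socs3 both unstimulated groups were higher and overlapped, and both stimulated groups were lower and overlapped. Socs5 had its highest mean in unstimulated isotype libraries and the other means at 8.12 to 9.60 CPM.

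**Figure D3:**
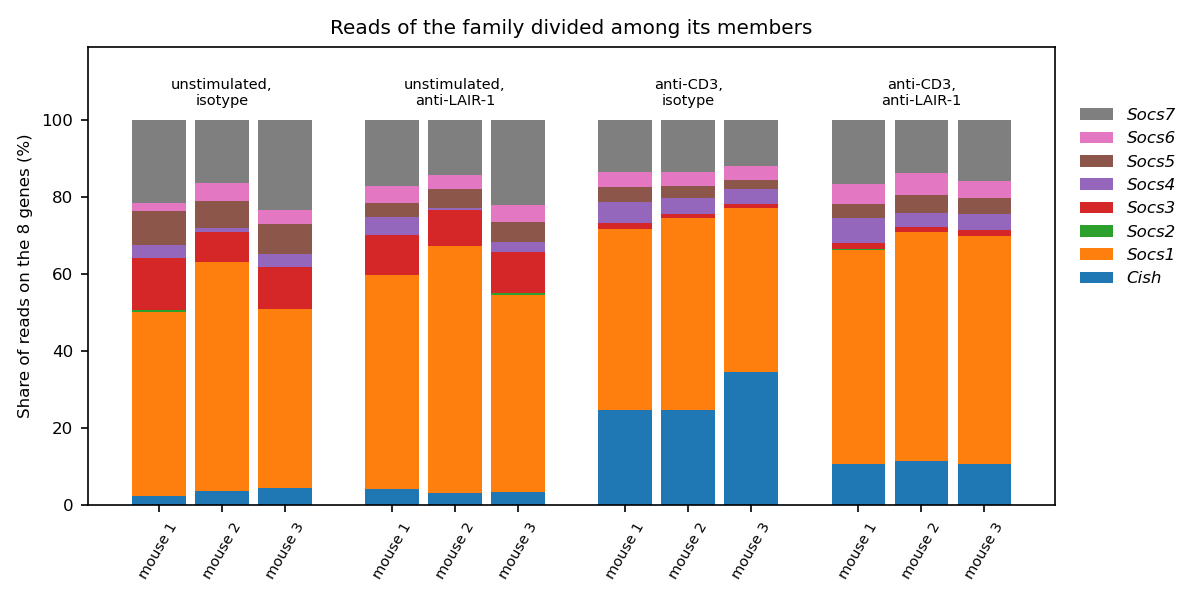
Share of the reads on the 8 genes that fell on each member (vertical axis, percent, stacked to 100) in each of the 12 libraries, grouped by condition. Cish took 24.9 to 34.7% with anti-CD3 and isotype, 10.6 to 11.6% with anti-CD3 and anti-LAIR-1, and 2.53 to 4.59% in unstimulated libraries.

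Because such shares are taken within a library, they do not depend on its normalisation. Cish went from 3.58 ± 1.03% of the family's reads in unstimulated isotype libraries (SD, n = 3) to 28.2 ± 5.70% in stimulated cells under isotype and 11.0 ± 0.546% under anti-LAIR-1. The share of Socs3 went the opposite way, from 10.7 ± 2.92% to 1.15 ± 0.255% and 1.37 ± 0.208%. The ratio of Cish to Socs1 reads was 0.529, 0.501 and 0.819 in mice 1 to 3 with anti-CD3 and isotype and 0.192, 0.195 and 0.179 with anti-LAIR-1. In unstimulated libraries this ratio was 0.0484 to 0.0992.

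Summed over the 8 genes, the family was at 305 ± 11.6 CPM (SD, n = 3) with anti-CD3 and isotype and at 229 ± 10.7 with anti-LAIR-1, and these groups were apart. Without Cish the sums were 220 ± 23.7 and 204 ± 8.70 CPM and the groups overlapped. Unstimulated sums were 161 ± 13.7 with isotype and 174 ± 38.2 with anti-LAIR-1. These sums describe the libraries and were not tested, and a sum over 3′ reads gives more weight to Socs1, the member with the most reads in all 12 libraries. In bulk RNA, fewer cells expressing a gene and less of its RNA per cell cannot be told apart.

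The genes whose pattern over the 12 libraries was closest to that of a member were found by the root mean square difference of centred log2 CPM, among 9222 genes. For Cish they were Nek6 (0.43), Zbtb32 (0.46) and Ccnd2 (0.47), against a spread of Cish itself of 1.58. Nek6, a mitotic kinase, and Zbtb32, a transcriptional repressor of lymphocytes, had 0 reads in every unstimulated library, and with a prior count of 0.5 only Ccnd2, a G1 cyclin, stayed among the 3 closest to Cish. Ccnd2 was at 131 ± 11.9 CPM unstimulated with isotype, and in stimulated cells 1042 ± 146 with isotype and 636 ± 101 with anti-LAIR-1 (SD, n = 3). Closest to Socs3 were Stim1 (0.23), Baz2b (0.24) and Ranbp10 (0.24), against its own spread of 1.13, and Stim1, the calcium sensor of store-operated entry, went from 30.8 ± 2.28 to 6.92 ± 0.857 CPM with anti-CD3 and isotype. Closest to Socs1 were Dtwd2 (0.17), Fbxw7 (0.18) and Cdk12 (0.18), against 0.41, and to Socs6 Psmd9 (0.13), Zfp397 (0.19) and Nbn (0.19), against 0.53. Socs4 had 8030462N17Rik (0.38), Gm7120 (0.41) and Phactr2 (0.42), against 1.05.

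The genes around the family were then followed by role, starting with the ligands that activate it. Every count of called genes in these lists is to be read beside the share of all genes, which was 5.76% for anti-LAIR-1 in stimulated cells, 35.3% higher and 36.1% lower for anti-CD3 with isotype, and 36.4% higher and 36.3% lower for anti-CD3 with anti-LAIR-1. Of 20 cytokine genes listed, 8 had a row and 4 were tested in stimulated cells with anti-LAIR-1, of which 3 fell and none rose. Il2, the growth factor upstream of STAT5, was at 16.9 ± 1.37 CPM under isotype and 8.02 ± 1.46 with anti-LAIR-1 (log2 -1.07, standard error 0.20, adjusted p = 0.00332 in edgeR). Ifng fell by 1.44 on the log2 scale, and Lif, a ligand of the gp130 family, by 2.72 with 19 to 61 reads with isotype and 2 to 8 with anti-LAIR-1. Lif entered this test through the isotype libraries, so a fall was the only call open to it. With all libraries thinned, 1 cytokine gene passed, and Il2 did not (adjusted p = 0.107 in edgeR). In unstimulated isotype libraries Il2, Ifng and Lif had 0 reads, so that they entered the test through the stimulated libraries, their calls with anti-CD3 were fixed by this, and no fold is given. With at least 10 counts required in every library, 0 ligands were called with anti-CD3.

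Receptor chains moved in both directions. With anti-LAIR-1 in stimulated cells 3 of 17 tested rose and 1 fell. Il7r, the receptor of IL-7 and a marker of naïve cells, rose from 5.55 ± 0.459 to 13.9 ± 1.79 CPM (log2 1.33, standard error 0.22, adjusted p = 0.00124 in edgeR), and Ifngr1 and Ifnar1, chains of the interferon-γ and type I interferon receptors, rose by 0.67 and 0.63. Il2ra, the inducible IL-2 receptor chain, fell by 0.49. Ifngr1 lost its call without the isotype library of mouse 2 (adjusted p = 0.12 in edgeR) or the anti-LAIR-1 library of mouse 3 (adjusted p = 0.104 in edgeR), and Ifnar1 without any 1 of the isotype libraries or of the anti-LAIR-1 libraries of mice 2 and 3 (adjusted p of 0.082 to 0.164 in edgeR). Thinned libraries also ended the calls of Ifngr1 (adjusted p = 0.0819 in edgeR) and Ifnar1 (adjusted p = 0.158 in edgeR), as did DESeq2 with a block for the mouse for Ifnar1 (adjusted p = 0.197). Anti-CD3 with isotype raised 6 of 18 receptor chains, a share near the 35.3% of all genes, and lowered 9, against 36.1% of all genes. Il2ra rose by 5.01 on the log2 scale and Il21r by 1.60, and Il15ra and Il12rb1 went from at most 1 read per library to 40 to 71 and 32 to 41 reads. Il7r fell by 5.95, Ifngr1 by 3.78, Il6ra by 3.34, and Il10ra from 13 to 26 reads to at most 1. Il15ra, Il12rb1 and Il10ra entered this test only through the group where they are high. Their calls were fixed by this, and the counts of 6 and 9 include them. With anti-LAIR-1 in both conditions, 5 of 18 rose and 9 fell, led by Il12rb1, Il2ra (4.56), Il15ra and Il21r (1.58) among those higher and by Il7r (-4.75), Ifngr1 (-3.11), Il10ra (17 to 23 reads against 1 to 6) and Ifngr2 (-2.98) among those lower. The calls of Il12rb1, Il15ra and Il10ra were fixed in the same way here.

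Of the JAK and STAT genes, 10 were followed and all 10 were tested. With anti-LAIR-1 in stimulated cells Jak1, a kinase shared by the common γ-chain and interferon receptors, rose by 0.30 (adjusted p = 0.0215 in edgeR), and 9 did not pass. The call of Jak1 was lost without the isotype library of mouse 2 or 3 or the anti-LAIR-1 library of mouse 2 or 3 (adjusted p of 0.0578 to 0.121 in edgeR) and in DESeq2 with a block for the mouse (adjusted p = 0.117). Stat5a, at a log2 fold change of -0.17, and Stat5b, at 0.12, encode STAT5, and neither passed (adjusted p of 0.535 and 0.734 in edgeR). RNA levels do not report the activity of STAT5, which was not measured. Anti-CD3 with isotype raised 2 of the 10, Stat5a (1.31) and Jak2 (1.21), and lowered 5, with Jak1 (-2.11), Stat2 (-1.89), Stat5b (-1.73) and Stat4 (-1.02) lowest. The 2 STAT5 genes thus moved in opposite directions. With anti-LAIR-1 in both conditions 3 rose, Jak2 (1.19), Stat5a (1.08) and Stat3 (0.48), and 5 fell, with Jak1 (-1.80), Stat5b (-1.63), Stat2 (-1.42) and Tyk2 (-1.35) lowest.

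**Figure D4:**
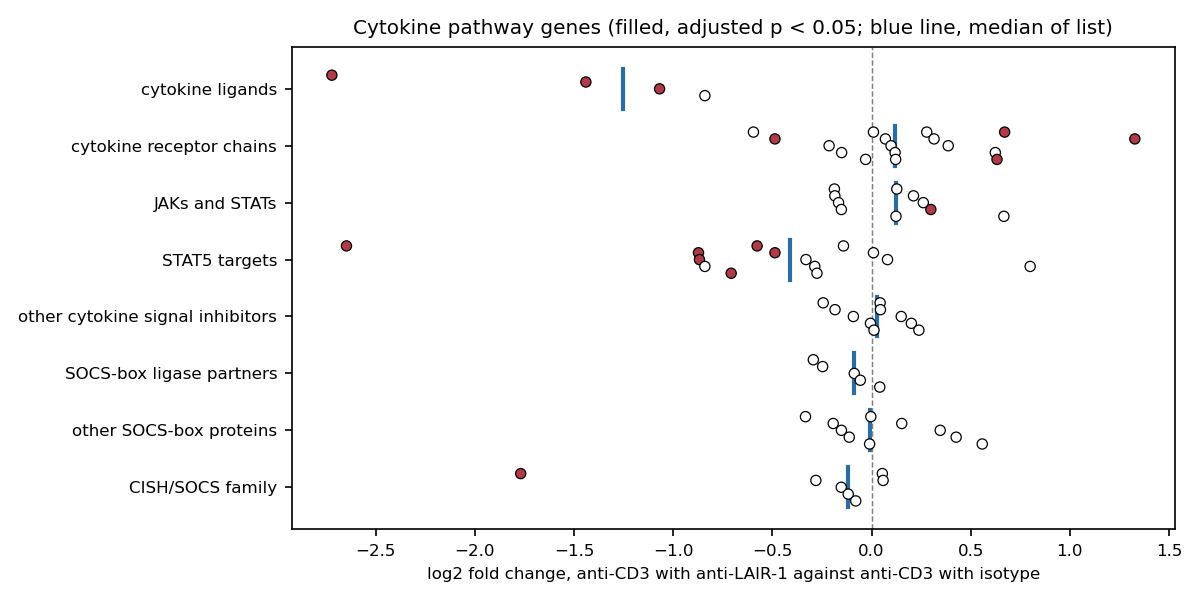
Log2 fold change with anti-LAIR-1 in stimulated cells (horizontal axis) of the tested genes of each list (rows), with filled points for an adjusted p-value under 0.05 in edgeR and a blue line at the list's median. STAT5 targets had a median of -0.41, and no gene of the inhibitor, ligase partner or other SOCS-box lists was filled. The lists were chosen with earlier results of these data known.

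Genes reported as STAT5 targets, other than Cish, included 6 that fell and none that rose among 14 tested with anti-LAIR-1 in stimulated cells, at a median of -0.41 on the log2 scale beside 0.0047 over all genes. Those with the largest falls were Gzmb (-2.65), the kinase gene Pim1 (-0.87), Bcl2l1 (-0.87), which encodes the survival factor Bcl-xL, and Ccnd2 (-0.71). Pim1 did not pass in DESeq2 (adjusted p = 0.0725, and 0.295 with a block for the mouse), and without the isotype library of mouse 2 its value was -0.57. Il2ra, Il2rb and Osm each stand in 2 lists. All 6 genes that fell also rose with anti-CD3 and isotype. Both comparisons use the same stimulated isotype libraries, so high values there give both, and the rise is no separate support for the fall. Gzmb and Lta also entered the test of that rise through these libraries. The list was chosen with earlier results of these data known, so its count and median only describe it and were not tested.

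Anti-CD3 with isotype raised 8 of 13 tested STAT5 targets and lowered 1, against 35.3% and 36.1% of all genes. With at least 10 counts required in every library, 5 in place of 9 were called, since Gzmb, Lta and Prf1 had at most 6 reads in any unstimulated isotype library and entered the test through the stimulated ones. Il2ra, Lta (4.81 on the log2 scale) and Myc (3.94) rose, Gzmb went from at most 1 read per library to 136 to 328, and Ccnd3 fell by 2.15. With anti-LAIR-1 in both conditions 7 of 13 rose, with Il2ra (4.56), Myc (3.68), Gzmb and Lta (3.36) highest. Gzmb entered this test too through the stimulated libraries, and the count of 7 includes it. The 3 that fell were Ccnd3 (-1.58), Bcl2 (-0.28) and Pim1 (-0.21). Bcl2 lost this call without the unstimulated library of mouse 3 or the stimulated library of mouse 1 or 2 (adjusted p of 0.0823 to 0.14 in edgeR) and in DESeq2 with a block for the mouse (adjusted p = 0.0656). Pim1 lost it without the unstimulated library of mouse 1 or 2 or the stimulated library of mouse 2 or 3 (adjusted p of 0.0776 to 0.215 in edgeR) and in DESeq2 (adjusted p = 0.0618). Without the stimulated library of mouse 2 its value was -0.14.

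No gene of the machinery that the family works with passed with anti-LAIR-1. Of the 5 partners of the SOCS-box ligase, none passed in stimulated cells, with log2 fold changes of -0.29 to 0.04. With anti-CD3 and isotype 4 rose, Ube2f (1.64), Cul5 (1.42), Tceb1 (1.29), which encodes elongin C, and Tceb2 (0.26), which encodes elongin B. Tceb2 lost its call without the unstimulated library of mouse 2 (adjusted p = 0.0857 in edgeR) or the stimulated library of mouse 1 (adjusted p = 0.0746 in edgeR), in thinned libraries (adjusted p = 0.122 in edgeR) and in DESeq2 with a block for the mouse (adjusted p = 0.0811). The same 4 rose with anti-LAIR-1 in both conditions, by 1.64, 1.02, 1.39 and 0.34. Of the other SOCS-box proteins, which use the same ligase for other targets, none of 10 passed with anti-LAIR-1 in stimulated cells. With anti-CD3 and isotype 4 of 11 fell, near the 36.1% of all genes, and none rose, against 35.3%. Those lower were Spsb1 (17 to 20 unstimulated reads against 5 to 15), Asb8 (-1.12), Asb3 (-0.86) and Spsb3 (-0.63). With anti-LAIR-1 in both conditions 6 of 12 fell. Of these, Spsb1 (43 to 48 reads against 3 to 11), Spsb2 (9 to 11 reads against 2 to 4), Asb3 (-0.90) and Asb7 (-0.76) were lowest. Spsb1 entered both tests, and Spsb2 the second, through the unstimulated libraries, so a fall was the only call open to them. The count of 4 includes Spsb1, and that of 6 includes both. In thinned libraries Asb7 was at -0.27 and did not pass (adjusted p = 0.443 in edgeR).

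Other inhibitors of cytokine signalling, phosphatases, PIAS proteins and the adaptor Sh2b3, had no gene that passed among 10 tested with anti-LAIR-1 in stimulated cells, at a median of 0.03. With anti-CD3 and isotype 4 rose, Sh2b3 (1.05), Ptpn2 (0.92), Pias2 (0.55) and Ptpn11 (0.42). Another 4 fell, Pias3 (19 to 50 unstimulated reads against 7 to 19), an inhibitor of STAT3, Pias1 (-0.84), Pias4 (-0.56) and Ptpn1 (-0.45). Pias4 lost this call without the unstimulated library of mouse 1 or the stimulated library of mouse 1 or 3 (adjusted p of 0.0861 to 0.133 in edgeR) and in DESeq2 (adjusted p = 0.065, and 0.129 with a block for the mouse). Ptpn11 lost its call in DESeq2 with this block (adjusted p = 0.0573) and in thinned libraries (log2 0.24, adjusted p = 0.175 in edgeR). With anti-LAIR-1 in both conditions 4 again rose, Sh2b3 (1.53), Ptpn2 (0.75), Pias2 (0.67) and Ptpn6 (0.31). Again 4 fell, Pias3 (50 to 69 unstimulated reads against 8 to 17), Pias1 (-0.73), Pias4 (-0.45) and Ptpn1 (-0.26). Here Ptpn1 did not pass under a replicate block for the mouse (adjusted p = 0.0553 in edgeR), nor without any 1 of the libraries other than the unstimulated one of mouse 2 (adjusted p of 0.0625 to 0.331 in edgeR), nor in DESeq2 (adjusted p = 0.0997). Ptpn6 did not pass in thinned libraries (adjusted p = 0.061 in edgeR). Pias4 did not pass here without the unstimulated library of mouse 1 or 2 or the stimulated library of mouse 2 or 3 (adjusted p of 0.0535 to 0.183 in edgeR), nor in DESeq2 (adjusted p = 0.0851), and in thinned libraries it was at -0.75. In both comparisons of anti-CD3, Pias3 passed the filter only through the unstimulated libraries, where it is high. Its calls were fixed by this, and both counts of 4 that fell include it.

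Without anti-CD3 none of the lists held a gene that passed with anti-LAIR-1. In the interaction 2 genes of the lists passed, Il7r (1.17, adjusted p = 0.01 in edgeR) and Bcl2l1 (-1.21, adjusted p = 0.043 in edgeR). They were 1 of 18 receptor chains and 1 of 14 STAT5 targets tested, and no gene of the other lists passed. Over all 9223 genes the share was 2.07%. With the replicate block 2 STAT5 targets passed in edgeR. Il7r did not pass without the stimulated isotype library of mouse 3 (adjusted p = 0.0618 in edgeR) or in thinned libraries (adjusted p = 0.115 in edgeR). With 1 library left out, Bcl2l1 passed only where that was an unstimulated library of mouse 1, and otherwise reached adjusted p-values of 0.0571 to 0.163 in edgeR.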

How the data were processed

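Per the labels and the study's methods, naïve CD8+ T cells of 3 mice were split over 4 wells each, and their RNA was sequenced from the 3′ end by an adapted CEL-seq protocol. The authors aligned reads with BWA MEM to the mouse mm10 transcriptome, dropped reads that mapped equally well to several places, and deposited raw counts per gene symbol. Whether molecular identifiers were collapsed is not given in the sources used here. The members and lists were chosen with earlier results of these data known. One gene and one gene list of the plan are not reported here.

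Counts were tested with edgeR 4.0.16 (R 4.3.3), with TMM normalisation, filterByExpr, the quasi-likelihood test and p-values adjusted by Benjamini-Hochberg over every gene tested, at a threshold of 0.05. Standard errors were taken as the log2 fold change over the square root of F, and 95% intervals from the t distribution. Each comparison used its own 6 libraries, and the interaction all 12, from which printed CPM were normalised too. Between libraries of a group, counts differed by 3.82 to 5.62 times the sampling variance, so that none was a copy. Named genes were all members, the called genes of each list (at most 4 in each direction, by size) and the 3 genes closest to each called member (log2 CPM, prior count 2). Positions are from GENCODE M21 (GRCm38), and promoter windows from RefSeq (GRCm38.p6). Python 3.11.15 drew the figures.

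The mouse numbers of the labels pair libraries of the same animal. Across genes, residuals of 1 mouse in both groups correlated at a mean r of 0.0613 (anti-LAIR-1 in stimulated cells), 0.0747 (in unstimulated cells), 0.027 (anti-CD3 with isotype) and 0.0327 (with anti-LAIR-1). Residuals cancel out within a group, so the mean r between different mice has the opposite sign by construction and adds nothing. Fits with the mouse as a block, DESeq2 1.42.0, other size factors, other filters, all 12 libraries in 1 fit and each library left out were the alternatives. Thinning every library to the smallest total was added after the data were seen. In counts simulated with 200 genes changed 2-fold, edgeR found 89.0% for anti-LAIR-1 in stimulated cells (8800 genes), 82.5% in unstimulated cells (8770 genes), 87.0% for anti-CD3 with isotype (8690 genes), 88.5% with anti-LAIR-1 (9000 genes) and 68.0% for the interaction (9223 genes). Of the genes called there, 3.3%, 4.1%, 3.9%, 4.8% and, for the interaction, 7.5% were unchanged ones. Exact permutation of 3 against 3 libraries cannot give a two-sided p under 0.1, and was not used.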

Additional observations from a re-analysis of the deposited data

Results flagged for a closer look

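The effect of anti-LAIR-1 on Cish differed between stimulated and unstimulated cells by a test of the difference itself. The difference of log2 fold changes was -1.92 (standard error 0.34, adjusted p = 0.00173 in edgeR), from a log2 fold change of -1.77 with anti-CD3 and of 0.15 without, and it was negative in 3 of 3 mice. In 20 other settings it lay between -2.09 and -1.67 and passed in all 20, with adjusted p-values up to 0.0317 in edgeR or DESeq2. In unstimulated libraries Cish had 12 to 27 reads. With every library thinned to the smallest total the difference was -1.73 (adjusted p = 0.0317 in edgeR).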

How the results depend on the processing

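Cish kept its direction and its call with anti-CD3, with anti-LAIR-1 in stimulated cells and in the interaction under every setting run, and Socs3 likewise in both comparisons of anti-CD3. The size of the gene counts was less stable. With anti-LAIR-1 in stimulated cells 507 genes passed, against 239 in DESeq2 with the replicate block, 549 in edgeR with the block, 732 with no filter on low counts, 285 with libraries thinned to the smallest total and 293 to 427 with 1 library left out. Without anti-CD3 there were 0, against 5 with no filter on low counts and 0 to 1 with 1 library left out. For anti-CD3 with anti-LAIR-1, 5 members passed, against 3 in DESeq2, 2 in thinned libraries and 4 to 5 with 1 library left out. The interaction gave 191 genes, against 109 in thinned libraries and 103 to 186 with 1 library left out. The replicate block in edgeR changed no call of a member, and gave 218 genes for the interaction.

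Reversed signs were confined to values whose test did not pass. Thinned libraries gave -0.0057 for Socs5 with anti-LAIR-1 in stimulated cells, -0.0849 for Cish and -0.13 for Socs3 in unstimulated cells, -0.25 for Socs5 for anti-CD3 with anti-LAIR-1, and 0.86 for Socs3, 0.12 for Socs4 and 0.11 for Socs6 in the interaction. With 1 library left out, the log2 fold change with anti-LAIR-1 in stimulated cells ran from -0.17 to 0.0068 for Socs1, -0.29 to 0.0241 for Socs3, -0.20 to 0.20 for Socs5 and -0.0573 to 0.16 for Socs6. In unstimulated cells it ran from -0.10 to 0.30 for Cish, -0.0273 to 0.47 for Socs1, -0.14 to 0.21 for Socs3, -0.97 to 0.40 for Socs4 and -0.0019 to 0.76 for Socs6. In the interaction it ran from -0.32 to 0.0227 for Socs3, -0.68 to 0.70 for Socs4, -0.71 to 0.0687 for Socs6 and -0.11 to 0.0493 for Socs7. Thinning leaves fewer reads by construction, and the cause of the other moves was not tested. Few reads limit the precision for Socs2, at 0 to 4 per library, and for Cish, Socs4 and Socs6 in unstimulated libraries, at 4 to 29.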
